A study of Mus musculus with 9 samples.

Results

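The 9 monocyte and macrophage marker genes (F13a1, Ctss, Lyz2, Cd68, Mpeg1, Adgre1, Cd14, Ly86 and Itgam) were followed in hematopoietic stem and progenitor cells of transplanted mice. A probe set was taken where the platform annotation named 1 of these genes and no other gene. Each of the 9 genes had 1 such probe set, among 18193 genes with a named probe set, and 7 of the 9 were among the 12398 genes bright enough to be tested. The samples were Lin-Sca1+cKit+ (LSK) cells, the marrow fraction of stem cells and multipotent progenitors, sorted from C57Bl/6 mice 8 weeks after they had been transplanted. GFP-positive and GFP-negative LSK cells came from mice given cells transduced with a retroviral vector, called transduced-graft mice here, and control LSK cells from mice given wild type LSK cells. All hosts were lethally irradiated. There were 3 arrays in a group, and marrow of 2 to 5 animals was pooled for every sample. The labels do not state whether control cells received a vector, or whether GFP-positive and GFP-negative samples of 1 number came from the same mice. The labels speak of transduced LSK cells, while the design text describes lineage-negative marrow cells. They name no marker that tells donor cells from cells left in the host. Levels are log2 RMA values, in which the array signal is background-corrected, quantile-normalized and summarised per probe set, and differences are log2 fold changes.

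Monocytes leave the marrow, circulate and become macrophages in tissues, where they take up and digest microbes and dying cells. Their genes are switched on in progenitors by transcription factors such as PU.1 and the C/EBP family, and early progenitors can carry low amounts of such transcripts before they commit to a lineage. Of the 9 genes, Cd14 and Ly86 belong to the recognition of bacterial products, Itgam and Adgre1 encode surface proteins used to identify myeloid cells, and Lyz2, Ctss, Cd68 and Mpeg1 encode lysosomal or antimicrobial proteins. F13a1 encodes the A subunit of coagulation factor XIII. None is restricted to monocytes. Neutrophils express Lyz2, Itgam and Cd14 as well, and B cells express Ctss and Ly86.

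Array medians lay between 4.52 and 4.64. GFP-positive array 2 and control array 3 stood apart. Their limma weights were 0.37 and 0.42, and those of the other arrays 0.74 to 2.85. The 3′ probe set for Gapdh exceeded the 5′ one by 3.22 and 3.87 on this pair of arrays, and by 2.47 to 2.89 elsewhere, and a wider gap is seen with shortened RNA. For the markers and for several other genes, differences are also given without single arrays of any group. Kit, a receptor used in the gate, stood at 8.17, 6.38 and 8.17 on GFP-positive arrays 1 to 3. It stood at 7.92 to 8.22 on GFP-negative and 8.08 to 8.73 on control arrays.

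The first comparison asked how GFP-positive LSK cells of transduced-graft mice differed from control LSK cells. Of the 7 tested markers, 6 had a higher mean in GFP-positive cells, by 0.63 to 2.26 on the log2 scale, and Cd68 had a lower one, while 47.2% of all tested genes had a higher mean. On every GFP-positive array F13a1, Ctss and Ly86 stood above every control array. In bulk samples such as these, a different number of cells of a type and a different amount of RNA per cell cannot be told apart. None of the 7 passed the test, limma with Benjamini-Hochberg adjustment over all 12398 tested genes at 0.05, in which 0 genes (0%) passed. Their adjusted p-values lay between 0.556 and 0.939. Unadjusted p-values were under 0.05 for 4 of the 7 (Ly86, F13a1, Ctss and Lyz2), all higher, against 3.30% of all tested genes that were higher with such a p, 3.19% that were lower and 6.49% in all. Groups did not overlap for 3 of the 7 with GFP-positive cells higher, against 4.36% of all tested genes, and for 1 (Cd68) with GFP-positive cells lower, against 4.26%. These were 3 and 1 of 7 tested, not of all 9, and Ly86 passed the filter on low values through the 6 arrays of transduced-graft mice, since its control mean was under the filter.

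The 250 bases before the annotated start are shown for the 4 tested genes whose GFP-positive and control arrays did not overlap. They come from RefSeq on build GRCm38.p6, read 5′ to 3′ on the gene's strand, and capitals mark 2 motifs searched on both strands, GAGGAA (the core of PU.1 sites) and TTNNGNAA (a loose form of C/EBP sites).
F13a1, chr13:37050245-37050494, minus strand: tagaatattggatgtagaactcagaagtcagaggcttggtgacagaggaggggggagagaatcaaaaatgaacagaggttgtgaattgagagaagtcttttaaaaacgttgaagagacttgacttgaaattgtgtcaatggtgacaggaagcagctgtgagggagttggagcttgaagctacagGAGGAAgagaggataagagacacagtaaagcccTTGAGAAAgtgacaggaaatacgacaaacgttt
Ctss, chr3:95526536-95526785, plus strand: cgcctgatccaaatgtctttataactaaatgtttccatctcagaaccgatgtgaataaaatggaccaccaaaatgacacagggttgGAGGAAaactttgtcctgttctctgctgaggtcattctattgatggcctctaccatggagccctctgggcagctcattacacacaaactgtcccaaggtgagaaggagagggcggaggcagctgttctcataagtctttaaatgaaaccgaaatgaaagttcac
Ly86, chr13:37345095-37345344, plus strand: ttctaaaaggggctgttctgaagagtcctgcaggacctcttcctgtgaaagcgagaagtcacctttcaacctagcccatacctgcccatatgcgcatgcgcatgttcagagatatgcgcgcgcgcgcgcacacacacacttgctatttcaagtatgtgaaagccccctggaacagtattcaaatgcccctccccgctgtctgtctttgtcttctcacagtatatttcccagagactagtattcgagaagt
Cd68, chr11:69666171-69666420, minus strand: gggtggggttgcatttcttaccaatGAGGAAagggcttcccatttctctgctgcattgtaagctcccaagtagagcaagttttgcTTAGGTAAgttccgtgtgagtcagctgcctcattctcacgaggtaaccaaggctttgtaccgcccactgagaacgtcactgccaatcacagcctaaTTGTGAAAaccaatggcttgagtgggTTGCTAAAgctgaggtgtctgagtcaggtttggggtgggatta
The table held 8 such windows for 7 of the 9 genes. Adgre1 and Cd14 had no entry. F13a1 held GAGGAA at -66 and TTNNGNAA at -33, counted from the start to the first base of the match, and a window at a second annotated start of F13a1 held neither. Ctss held GAGGAA at -164. Cd68, the gene with the lower mean, held GAGGAA at -225 and TTNNGNAA at -165, -69 and -43. Ly86 held neither. Of the 8 windows 4 held GAGGAA and 4 held TTNNGNAA, against 23.3% and 36.8% of all 32851 windows of this length. The 2 motifs share no bases in the windows printed. The longer GAGGAAGT was in 0 member windows and in 2.44% of all windows.

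Among the genes of bacterial recognition, Ly86 differed most. It encodes MD-1, a secreted protein that pairs with the receptor CD180 at the cell surface. Ly86 stood at 7.30, 4.49 and 6.66 on GFP-positive arrays 1 to 3, at 6.09, 6.88 and 6.88 on GFP-negative arrays 1 to 3, and at 3.91, 4.07 and 3.69 on control arrays 1 to 3. All 6 arrays of transduced-graft mice were above all controls, which held for 1.60% of the tested genes and for no other tested marker. GFP-positive array 2 was 0.42 above the highest control, and the lowest GFP-negative array 2.02 above it. The log2 fold change was 2.26 ± 0.62 (SE) in GFP-positive cells against control, a 4.79-fold difference (95% interval 0.86 to 3.66 on the log2 scale, for this gene alone; limma adjusted p = 0.556). Without GFP-positive array 2 it was 3.09. An exact two-sided permutation test of 3 GFP-positive against 3 control arrays gave p = 0.1 for Ly86, F13a1, Ctss and Cd68, the smallest p this design allows. It gave the same for Adgre1, which was under the filter. Groups of 3 that do not overlap always give this p, so it restates the lack of overlap.

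Cd14, the co-receptor that hands lipopolysaccharide to TLR4, was under the filter and was not tested. It stood at 3.26, 3.14 and 2.81 on GFP-positive arrays, at 3.08, 2.74 and 3.95 on GFP-negative arrays and at 3.97, 2.91 and 3.14 on control arrays. The 3 groups overlapped, and every array lay under the filter, at 4.03.

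F13a1, whose protein cross-links fibrin and is made by monocytes and macrophages, stood at 7.78, 7.19 and 7.12 on GFP-positive arrays. It stood at 7.61, 7.04 and 6.43 on GFP-negative arrays and at 6.88, 5.53 and 5.48 on control arrays. GFP-positive arrays were above all controls by 0.24 or more, while control 1 lay within the GFP-negative range. Its log2 fold change in GFP-positive cells was 1.40 ± 0.45 (SE), with an interval of 0.38 to 2.42, and 1.25 without both arrays that stood apart. Megakaryocytes also make F13a1. Of the 8 genes listed for them 3 were tested, all with lower means in GFP-positive cells (median -0.66), and their part in the F13a1 level was not tested. Pf4, which encodes platelet factor 4, stood at 5.93, 4.08 and 7.17 on GFP-positive and at 6.77, 9.00 and 7.38 on control arrays, which overlapped. The log2 difference of Pf4 was -1.99, and -1.17 without GFP-positive array 2. Itga2b, another of the 3, stood at 6.69, 7.45 and 7.17 on GFP-positive and at 7.75, 7.94 and 7.59 on control arrays. It was below every control, as were 4.26% of all tested genes. F13a1 and Ly86 lie near each other on chromosome 13, with 4 genes between them in the RefSeq table, 0 of them protein-coding.

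Ctss encodes cathepsin S, a lysosomal protease that trims the invariant chain of MHC class II. It stood at 9.42, 9.60 and 9.10 on GFP-positive arrays, at 9.24, 8.57 and 8.60 on GFP-negative arrays and at 8.08, 8.42 and 8.82 on control arrays. The lowest GFP-positive array was 0.28 above the highest control. The log2 fold change in GFP-positive cells against control was 0.93 ± 0.31 (SE), a 1.91-fold difference, and lay between 0.75 and 1.13 under every other setting tried.

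Lyz2 encodes lysozyme M, which cleaves bacterial cell walls and is made by monocytes, macrophages and neutrophils. It stood at 12.48, 11.42 and 10.65 on GFP-positive arrays, at 11.73, 10.25 and 10.17 on GFP-negative arrays and at 9.49, 8.83 and 10.99 on control arrays. The groups overlapped through control 3, which was 1.50 above the next control. GFP-positive cells had a log2 fold change of 1.75 ± 0.67 (SE). It was 1.27 without GFP-positive array 1, 2.36 without control 3 and 2.54 with array weights in limma. Its neighbour Lyz1 is a near-identical gene, so their signals may mix. A pair of Lyz1 probe sets of the x_at kind, whose probes can match related transcripts, followed Lyz2, the brighter at 11.27 to 12.64 on GFP-positive and 9.30 to 11.05 on control arrays. The third Lyz1 probe set stood at 3.39 to 4.20 on GFP-positive, 3.58 to 3.64 on GFP-negative and 3.33 to 3.64 on control arrays.

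Mpeg1 encodes perforin-2, a pore-forming protein of phagocytes. It stood at 8.12, 5.97 and 7.54 on GFP-positive arrays, at 8.35, 7.26 and 6.62 on GFP-negative arrays and at 7.38, 5.97 and 4.76 on control arrays. All groups overlapped. Against control the log2 fold change in GFP-positive cells was 1.18 ± 0.76 (SE). It was 0.72 without GFP-positive array 1, 1.80 without GFP-positive array 2, 1.85 without control 1 and 0.54 without control 3.

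Cd68, a heavily glycosylated protein of lysosomes and endosomes, went against the other tested markers. It stood at 6.67, 6.67 and 6.63 on GFP-positive arrays, at 6.99, 5.67 and 7.17 on GFP-negative arrays and at 6.88, 6.75 and 8.43 on control arrays. The GFP-positive arrays were the lowest of the comparison, by 0.075 at the closest point. Cd68 thus had a log2 fold change of -0.69 ± 0.52 (SE) and one of -0.16 without control 3.

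Itgam encodes CD11b, the alpha chain of an integrin that binds complement and ICAM proteins. Antibodies to CD11b and GR1 were named for the depletion of the donor marrow, and the antibodies of the final sort are not given in the sources used here. Itgam stood at 5.85, 4.22 and 4.09 on GFP-positive arrays, at 4.62, 3.68 and 3.99 on GFP-negative arrays and at 3.69, 3.39 and 5.20 on control arrays. GFP-positive and control arrays overlapped through control 3, while GFP-negative array 2 also lay just below control 1. The log2 fold change was 0.63 ± 0.59 (SE) in GFP-positive cells. It was 0.067 without GFP-positive array 1, 0.28 without control 2 and 1.18 without control 3, so single arrays set its size. Adgre1, which encodes a surface antigen of mature mouse macrophages, was under the filter at 2.10, 2.05 and 2.41 on GFP-positive arrays, 5.07, 2.00 and 2.56 on GFP-negative arrays and 1.38, 1.84 and 1.84 on control arrays. All 6 arrays of transduced-graft mice were above the controls, though all but GFP-negative array 1 lay under 4.03, and the level of control arrays 2 and 3 was the same value, a tie that RMA can give.

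**Figure D1:**
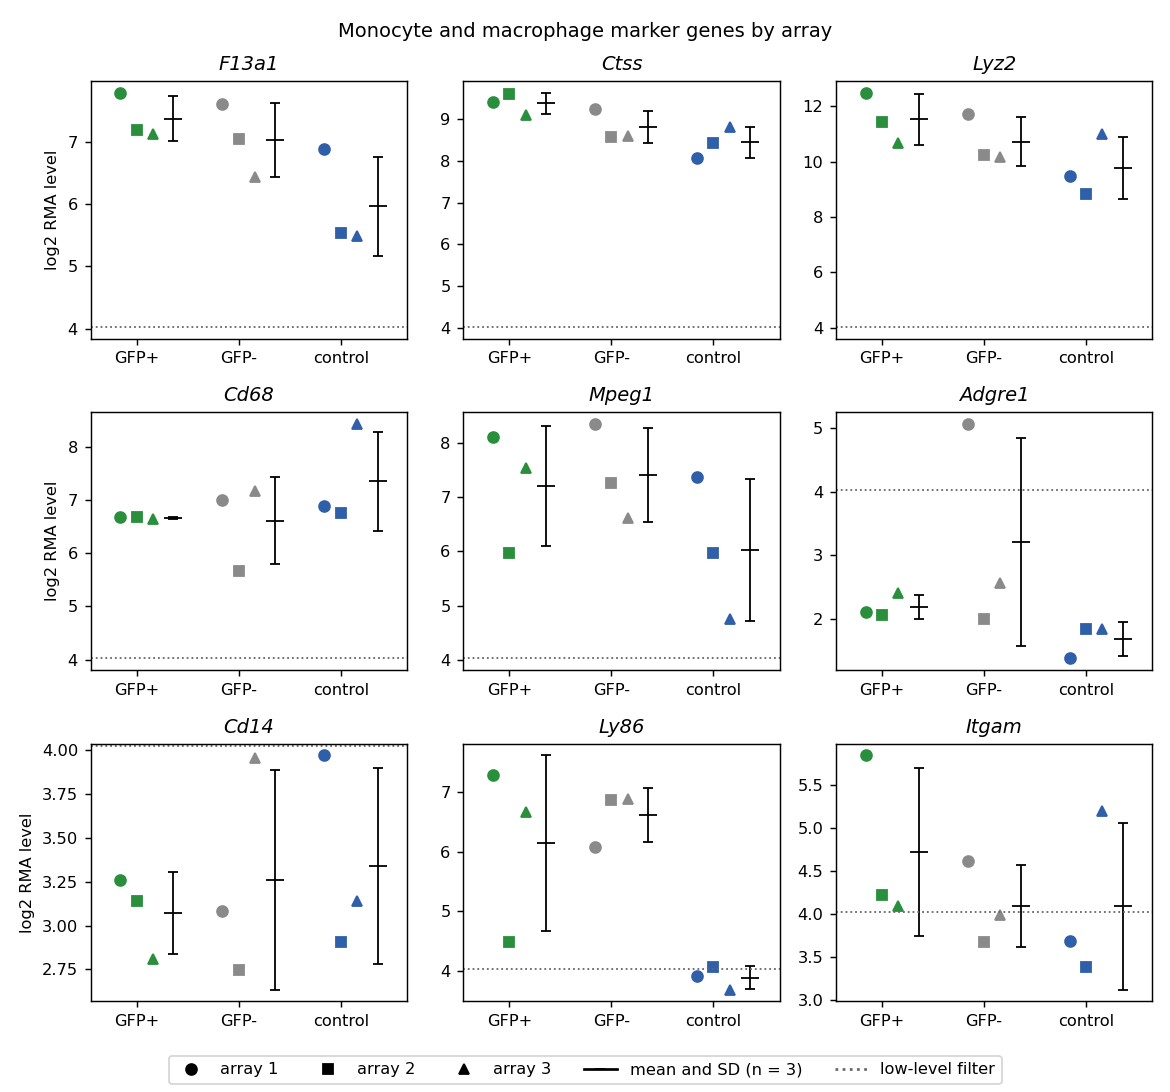
Log2 RMA level of the 9 marker genes on each array, with GFP-positive (GFP+), GFP-negative (GFP-) and control arrays from left to right. Symbols give the array number, bars the mean and SD of 3 arrays, and the dotted line the filter on low levels (4.03). Ly86 stood above all controls on all 6 arrays of transduced-graft mice, while Lyz2, Itgam and Cd68 had their highest control on array 3.

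In the second comparison, GFP-negative cells, which lacked the vector's marker, were set against control cells. Again 6 of the 7 tested markers had a higher mean and Cd68 a lower one, while 46.5% of all tested genes had a higher mean, and 0 of 12398 genes (0%) passed (limma adjusted p of the markers from 0.494 to 0.999). The 2 fractions share the control arrays, so their values are given side by side and are not separate results. The log2 fold change of Ly86 was 2.73 ± 0.62 (SE) in GFP-negative cells, a 6.62-fold difference with an interval of 1.33 to 4.13, and it was 2.59 to 2.99 under every other setting tried. F13a1 was at 1.06 ± 0.45, with an interval of 0.04 to 2.08. These 2 had an unadjusted p under 0.05, against 2.83% of all tested genes that were higher with such a p, 2.74% that were lower and 5.57% in all. Ly86 was the 1 tested marker whose groups did not overlap, against 4.94% of all tested genes with GFP-negative cells higher and 6.47% with them lower.

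The other tested markers differed between GFP-negative and control cells by less than their intervals. Mpeg1 was at 1.38 ± 0.76, at 0.91 without GFP-negative array 1 and at 0.74 without control 3. Lyz2 was at 0.95 ± 0.67, at 0.44 without GFP-negative array 1, 0.48 without control 2 and 1.55 without control 3. Ctss, at 0.36 ± 0.31, was at 0.15 without GFP-negative array 1, 0.18 without control 1 and 0.55 without control 3. Cd68, at -0.74 ± 0.52, was at -0.27 without GFP-negative array 2 and -0.20 without control 3. Each of these 4 thus depended on single arrays of either group. The mean of Itgam was 4.09 ± 0.48 in GFP-negative and 4.09 ± 0.97 in control cells (SD, n = 3 each). Its difference turned negative when arrays were centred or quantile-normalized again, and ranged from -0.35 without control 2 to 0.55 without control 3.

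The third comparison set GFP-positive against GFP-negative cells of transduced-graft mice. None of the 7 markers passed, and 0 of all tested genes (0%) did (limma adjusted p = 0.9998 for each marker). An unadjusted p under 0.05 was found for 0 markers, against 2.55% of all tested genes, 1.28% higher and 1.27% lower. Groups without overlap were found for 0 markers, against 3.96% of all tested genes with GFP-positive cells higher and 2.44% lower. Of the 7, 5 had a higher mean in GFP-positive cells, against 51.8% of all tested genes. Log2 fold changes ranged from -0.47 ± 0.62 (SE) for Ly86 to 0.80 ± 0.67 for Lyz2. The intervals were wide, from -1.87 to 0.94 for Ly86 and from -0.13 to 1.28 for Ctss, so the fractions are not shown to be alike. Without GFP-positive array 2 the difference was 0.36 for Ly86 and 0.42 for Mpeg1, both of the opposite sign.

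**Figure D2:**
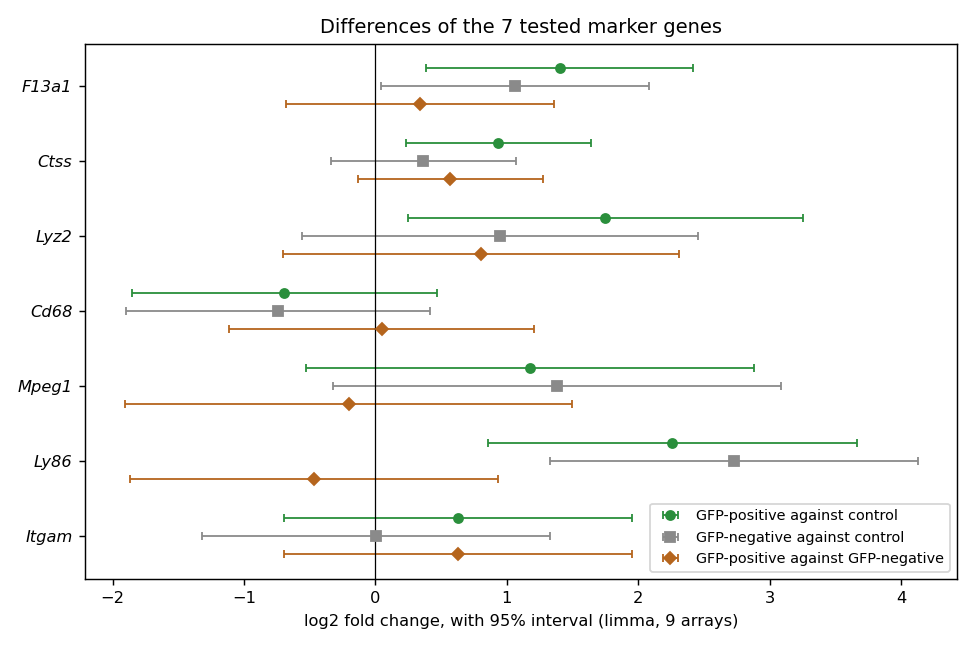
Log2 fold change (horizontal axis) of the 7 tested marker genes in GFP-positive against control, GFP-negative against control and GFP-positive against GFP-negative cells, with 95% intervals from limma for each gene alone. The intervals of Ly86 and F13a1 against control lie above 0 in both fractions, and all 7 intervals between the fractions include 0.

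The markers shared some of their variation between arrays and not the rest. GFP-positive array 1 was the highest of its group for F13a1, Lyz2, Mpeg1, Ly86 and Itgam, and GFP-negative array 1 for F13a1, Ctss, Lyz2, Mpeg1 and Itgam. The 2 arrays that stood apart partly divided them. Lyz2, Itgam, Ctss and Cd68 had their highest control level on array 3, by 1.50, 1.50, 0.40 and 1.55 over the next control. F13a1, Mpeg1 and Ly86 had their lowest control level on that same array. The levels there and on the next control were 5.48 and 5.53 for F13a1, 4.76 and 5.97 for Mpeg1 and 3.69 and 3.91 for Ly86. F13a1 was thus close to a tie. On GFP-positive array 2, Mpeg1 and Ly86 had the lowest level of their group and Ctss and Cd68 the highest. For Cd68 this was 6.674 against 6.671 on GFP-positive array 1, close to a tie. After group means were removed, Lyz2 and Itgam had a Pearson r of 0.93 over the 9 arrays, F13a1 and Mpeg1 of 0.84, Ctss and Lyz2 of 0.76, Cd68 and Itgam of 0.65 and Lyz2 and Cd68 of 0.61. In the same measure Lyz2 and Mpeg1 had 0.046, and Ctss and Ly86 -0.495. These correlations describe 9 arrays, 2 of which stand apart, and carry no test.

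Granulocyte genes moved with most of the tested markers, though not with Cd68. All 14 tested genes of that list had higher means in GFP-positive than in control cells, with a median of 2.59, and all 14 did in GFP-negative cells, with a median of 2.28. Without control 3 and GFP-positive array 2 the first median was 3.64, and without control 3 the second was 2.98. The marker genes had medians of 1.18 and 0.95, and all tested genes of -0.028 and -0.038. The summed granulocyte level was 14.8 to 15.7 on GFP-positive, 14.1 to 15.4 on GFP-negative and 12.4 to 14.3 on control arrays, with control 3 the highest control. Ctsg, a protease of primary granules, differed by 2.61 ± 0.49 (SE) in GFP-positive and 2.46 ± 0.49 in GFP-negative cells. Ms4a3, a gene of granulocyte-monocyte progenitors, differed by 2.56 ± 0.51 and 2.33 ± 0.51. Unlike the sum, Ctsg (6.89) and Ms4a3 (4.96) had their lowest control level on control 3, as did Mpo, Elane and Prtn3. The other tested genes of the list had their highest control level there, so the list was divided on that array. The summed granulocyte level had a Pearson r of 0.954 with Lyz2, 0.845 with Ctss and 0.741 with F13a1 over the 9 arrays. With Itgam, Ly86, Mpeg1 and Cd68 the r was 0.715, 0.615, 0.445 and -0.0767. The part of granulocyte transcripts in the marker levels was not tested. The summed B cell level was 9.54 to 10.7 on GFP-positive, 8.66 to 9.83 on GFP-negative and 7.48 to 10.3 on control arrays. Its Pearson r over the 9 arrays was 0.669 with F13a1, 0.644 with Lyz2, 0.501 with Ctss and 0.0177 with Ly86. With Itgam, Mpeg1 and Cd68 it was 0.436, 0.284 and -0.00625. The correlations with both sums describe arrays that share their groups. The part of B cell transcripts in the marker levels was not tested.

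**Figure D3:**
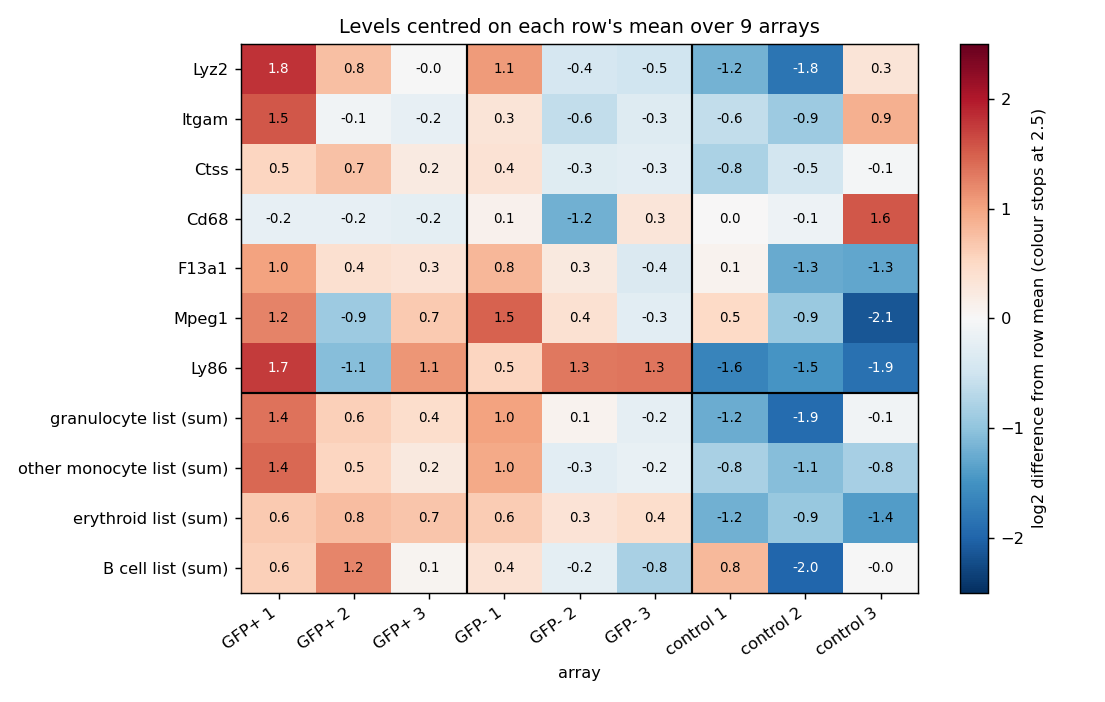
Level of the 7 tested marker genes and the summed level of 4 gene lists on each array, as the log2 difference from the row's mean over 9 arrays (red above, blue below), with GFP-positive, GFP-negative and control arrays from left to right. On control 3 Lyz2, Itgam and Cd68 were above their mean, and F13a1, Mpeg1 and Ly86 below it.

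Counts of markers that did not overlap depended on the 2 arrays that stood apart. Without control 3, 5 of the 7 tested markers were higher on every GFP-positive array (8.35% of all tested genes were), and without both arrays 6 were, all except Cd68 (14.2%). In the comparison of GFP-negative with control cells, leaving out control 3 gave 3 of 7 with every GFP-negative array higher, Ctss, Lyz2 and Ly86, and 9.60% of all tested genes. These counts were made after the data had been seen.

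Other monocyte genes went the same way as most of the markers. Of 16 tested, 14 had a higher mean in GFP-positive cells, with a median of 1.38, and 8 did not overlap with control, against 4.36% of all tested genes. In GFP-negative cells 13 of 16 were higher, with a median of 0.96, and 6 did not overlap, against 4.94%. None passed limma over all genes. Without control 3 and GFP-positive array 2 the median in GFP-positive cells was 0.84, and 12 did not overlap, against 14.2% of all tested genes. Aif1 and Lgals3, among the 8, had control means under the filter and were tested through the arrays where they were high. Lgals3 was also among the 6 in GFP-negative cells, as was Csf1r, whose other probe sets did not show the difference. Ccr2, the chemokine receptor that brings monocytes out of the marrow, stood at 6.67, 6.52 and 5.15 on GFP-positive, 5.53, 5.82 and 5.73 on GFP-negative and 4.29, 3.68 and 4.54 on control arrays. All 6 arrays of transduced-graft mice were above all controls. Lgals3, a galectin abundant in macrophages, stood at 7.92, 6.56 and 6.68 on GFP-positive, 7.89, 6.60 and 5.99 on GFP-negative and 2.74, 4.86 and 4.20 on control arrays, again with no overlap.

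Csf1r, the growth factor receptor of the lineage, was named after its values were seen. Its brightest probe set stood at 10.83, 3.62 and 9.62 on GFP-positive, 8.93, 7.19 and 9.51 on GFP-negative and 4.90, 6.68 and 4.56 on control arrays. As for Ly86 and Mpeg1, GFP-positive array 2 was the low one. The log2 difference of GFP-positive from control cells was 2.64, and 1.24 without GFP-positive array 1 and 4.84 without array 2. The other 2 Csf1r probe sets did not show the difference. They ranged from 4.57 to 5.85 on GFP-positive, 4.60 to 5.28 on GFP-negative and 4.37 to 5.59 on control arrays. A higher Csf1r level was thus seen on 1 of 3 probe sets.

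Genes of resident macrophages were mixed. Of 14 tested genes, 8 had a higher mean in GFP-positive cells (median 0.19) and 6 in GFP-negative cells (median -0.072). Another 8 of the 22 with a named probe set had a mean under the filter, as did Adgre1. They were Mertk, Axl, Timd4, Mrc1, Vsig4, Spic, C1qa and Gpnmb. Mrc1 still reached 5.73 on GFP-positive array 1 and 6.89 on GFP-negative array 1. C1qb, named after its values were seen, was tested. It stood at 8.64, 5.37 and 6.62 on GFP-positive, 8.22, 3.72 and 5.01 on GFP-negative and 5.79, 5.10 and 3.48 on control arrays, which overlapped. Slc40a1, the iron exporter ferroportin, differed by 2.11 ± 0.87 (SE) in GFP-positive cells, and by 1.39 without control 2. Vcam1, an adhesion molecule, differed by 0.82 ± 0.43, and by 0.48 without control 1. C1qc, a complement component, differed by 1.22 ± 0.63, and by 0.39 without GFP-positive array 1, and its control mean of 3.57 was under the filter. Trem2, a macrophage receptor for lipids, differed by -0.47 ± 0.30 in GFP-negative cells, and by -0.30 without control 3.

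The pathways around single markers gave smaller medians. In the lipopolysaccharide receptor pathway 6 of 8 tested genes had a higher mean in GFP-positive cells, with a median of 0.21. Tlr4, the signalling receptor, was among the others. It had levels of 5.09, 3.08 and 4.98 in GFP-positive cells and of 7.15, 6.94 and 3.27 in control cells. The log2 difference was -1.40, and -2.66 without control 3, -0.72 without control 1, -0.83 without control 2 and -0.75 without GFP-positive array 2. Cd180, the partner of the Ly86 protein, stood at 6.04, 5.57 and 7.57 on GFP-positive, 7.30, 6.83 and 6.65 on GFP-negative and 6.34, 5.73 and 6.52 on control arrays. GFP-negative arrays lay just above the controls, and GFP-positive arrays overlapped with them. In GFP-negative cells Traf6, an adaptor of the pathway, differed by 1.39 ± 0.78 (SE), and by 0.92 without control 3. In GFP-positive cells Traf6 differed from control by -0.50 ± 0.78, and by 0.44 without GFP-positive array 2. Tirap, which bridges TLR4 to MYD88, differed by 0.48 ± 0.66 in GFP-negative cells, and by -0.085 without control 1.

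Endolysosomal proteases and membrane proteins, the company of Ctss and Cd68, had a median of 0.30 in GFP-positive cells (9 of 10 higher) and -0.052 in GFP-negative cells (5 of 10 higher), and 0 had groups that did not overlap. Ctsc and Ctsd, the list's genes with the smallest p in GFP-positive cells, differed by 1.01 ± 0.67 and 0.49 ± 0.38 (SE), and Ctsc by 0.38 without control 3 and Ctsd by 0.29 without control 1. Among leukocyte integrins and their ligands the median was 0.070 in GFP-positive cells (4 of 7 higher) and 0.30 in GFP-negative cells (6 of 7 higher). Itgb2, the beta chain that CD11b needs, named after its values were seen, stood at 10.43, 9.24 and 8.43 on GFP-positive and at 9.03, 6.28 and 9.38 on control arrays, which overlapped. The log2 difference was 1.13, and 0.60 without GFP-positive array 1, 0.16 without control 2 and 1.71 without control 3. Itgal, the alpha chain of LFA-1, differed by 0.91 ± 0.36 (SE) in GFP-positive and 1.38 ± 0.36 in GFP-negative cells, with no overlap in either. Itgax, which encodes CD11c, differed by 1.99 ± 0.48 in GFP-positive and 0.35 ± 0.48 in GFP-negative cells. Its means in GFP-negative and control cells, 3.95 and 3.60, were under the filter, so it was tested through the GFP-positive arrays. The 10 tested family relatives of the markers had a median of 0.30 in GFP-positive and 0.19 in GFP-negative cells.

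**Figure D4:**
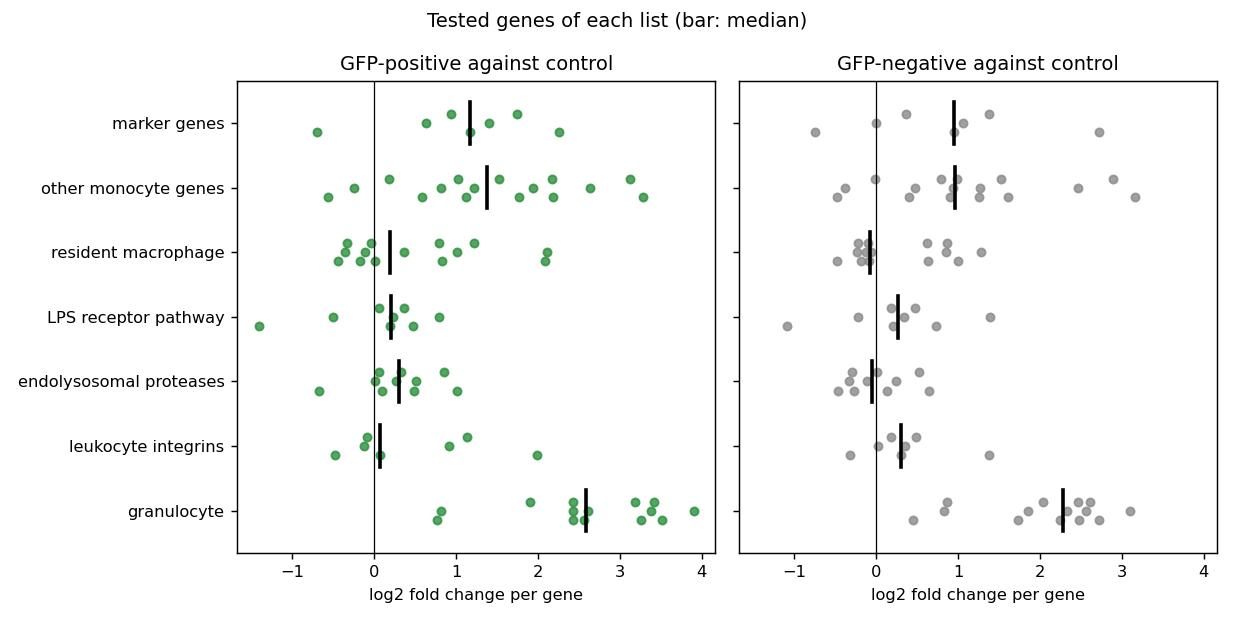
Log2 fold change of each tested gene (points, spread vertically for legibility) and the list median (bars) for the marker genes, 5 lists of related genes and granulocyte genes, in GFP-positive against control (left) and GFP-negative against control (right). The medians of the marker, other monocyte and granulocyte lists were 1.18, 1.38 and 2.59 in GFP-positive cells, and those of the other 4 lists lay between 0.070 and 0.30.

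The genes most like the markers were found by the Pearson correlation over 9 arrays with the mean of the 7 tested markers, each centred on its own mean. That mean was 1.10, -0.052 and 0.27 on GFP-positive, 0.67, -0.085 and -0.010 on GFP-negative and -0.519, -0.998 and -0.369 on control arrays. The 8 highest of all tested genes were Ckap4 (0.963), Igsf6 (0.955), Ank1 (0.954), Cpa6 (0.947), Ceacam10 (0.947), Trem1 (0.943), Cd33 (0.943) and Siglece (0.940). Igsf6 stood at 10.02, 8.33 and 9.25 on GFP-positive, 10.08, 8.66 and 8.07 on GFP-negative and 7.89, 7.14 and 7.83 on control arrays. Trem1, Cd33 and Siglece encode receptors of myeloid cells, and Ank1 the ankyrin of the red cell membrane. The arrays share their groups and the 2 arrays that stood apart, so these values describe likeness of pattern and no more.

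Among markers of other cell types, erythroid genes had a median of 1.27 in GFP-positive and 1.31 in GFP-negative cells (8 and 7 of 9 tested higher), and B cell genes of 0.73 and 0.57 (7 and 6 of 8). Dendritic cell and MHC class II genes had medians of 0.092 and 0.27, and T and NK cell genes of 0.030 and 0.27. A list of Kit and other stem and progenitor cell genes had medians of -0.57 and -0.16. Of its tested genes only Kit belongs to the Lin-Sca1+cKit+ gate, so these medians do not describe the gate. Procr, a stem cell surface protein of that list, was at -1.50 ± 0.37 (SE) in GFP-positive and -2.40 ± 0.37 in GFP-negative cells.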

How the data were processed

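Biotin-labelled, amplified RNA of 9 LSK samples was measured on 1 array per sample. The deposited values are log2 RMA values of 45101 probe sets, and RMA is named, with no version, in the submitters' processing notes. The genome build is not given in the sources used here. Of these, 64 were control probe sets, 34945 named 1 gene, 932 several and 9160 none. Symbols were updated through Entrez numbers with a RefSeq table (34741 matched).

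For genes with several probe sets the one of highest mean was used, and 12398 of 18193 genes with a mean above the 40th percentile of probe sets (4.03) were tested in limma 3.58.1 (R 4.3.3; lmFit, eBayes) over all 9 arrays. P-values were adjusted by Benjamini-Hochberg over all tested genes. No p was adjusted over a list, and lists are described by counts and medians. Nothing says that arrays of a group came from separate experiments, so p-values measure the spread between these samples. The number of arrays limits the precision.

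The members and lists were chosen with earlier results of these data known. Named were the 9 members, the 8 genes most like their mean, and from 13 other lists some genes with the smallest p in either comparison with control. Not all such genes are shown. Slc4a1 and Car1 of the erythroid list are among those left out. Of 158 genes in those lists, 15 had no named probe set. The fit was tested on simulated data. Alternatives changed the filter, the probe set, the normalization, the variance prior, array weights, the groups in the fit, the replicate block, the threshold and the arrays. Exact tests used SciPy 1.17.1, and plots Python 3.11.15 with matplotlib 3.10.9. The insert of the vector is not reported here.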

Additional observations from a re-analysis of the deposited data

How the results depend on the processing

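No gene passed in any of the 3 comparisons, and no marker did, in limma under any of 21 other settings. The smallest adjusted p of a marker was 0.107, for GFP-positive against control with array weights, where 0 of 12398 genes passed and 1368 had an unadjusted p under 0.05, against 805 without weights. Against control, the direction of Ly86, F13a1, Ctss, Lyz2, Mpeg1 and Cd68 was the same under all 21 settings in both fractions. Itgam in GFP-negative cells against control was -0.033 after a further quantile normalization and -0.0028 with arrays centred on the median, and ranged from -0.35 to 0.55 when 1 array was left out. Between GFP-positive and GFP-negative cells, Mpeg1 was 0.35, Ly86 0.20 and Cd14 0.031 with array weights, and Mpeg1 0.42 and Ly86 0.36 without control 3 and GFP-positive 2. With 1 array left out, this difference ranged from -0.66 to 0.42 for Mpeg1, from -1.04 to 0.36 for Ly86, from -0.42 to 0.33 for Cd68 and from -0.45 to 0.16 for Cd14. Cd14 against control ranged from -0.49 to 0.045 in GFP-positive and from -0.43 to 0.24 in GFP-negative cells. The cause of these turns was not tested. Over all tested genes, same-numbered arrays had correlations of their deviations from group means between -0.29 and 0.099. Those of GFP-positive with GFP-negative arrays lay between -0.066 and 0.099. The numbers were not used as pairs, which does not show that the samples came from different mice. F13a1 and Lyz2 fell in order over arrays 1, 2 and 3 in both fractions, and the other tested markers did not. With the replicate block 0 genes passed in each comparison, as without it. Values of other named genes without single arrays were added after the data had been seen.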
